A study of Homo sapiens with 12 samples.

Results

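The matrix metalloproteinases (MMPs) and their tissue inhibitors (TIMPs) were followed in IMR90 cells, diploid fibroblasts from normal human lung. The members were chosen by gene name: the collagenases MMP1 and MMP13, the stromelysins MMP3 and MMP10, the gelatinases MMP2 and MMP9, the membrane-type enzyme MMP14, and the inhibitors TIMP1, TIMP2 and TIMP3. They were 10 of the 48162 gene IDs in the count tables, and all 10 had an ID there. No measured value entered that choice, although it was made with earlier results of these data known.

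The study asked whether DOT1L, the methyltransferase of histone H3 lysine 79, controls what senescent fibroblasts secrete. RNA was sequenced from 12 libraries in 4 groups of 3. RAS/shDOT1L cells carried the oncogene HRAS with the G12V change from a pBABE vector plus a pLKO.1 hairpin against DOT1L, and RAS cells carried the same oncogene with no control hairpin named in the labels. DOT1L OE cells carried human wild-type DOT1L and no RAS, and control cells carried the pBABE vector alone. Growth was in 2% oxygen throughout, and selection lasted 4 days. Puromycin (3 µg/mL) was used for RAS/shDOT1L, RAS and control cells, and blasticidin (1 µg/mL) for DOT1L OE cells. For DOT1L OE against control, the transgene and the selection drug therefore cannot be told apart. The study's knockdown figures describe a control hairpin against GFP, but whether these RAS cells carried it is not known here. Between RAS/shDOT1L and RAS, the loss of DOT1L therefore cannot be told apart from an added virus. The study's methods list more than 1 hairpin against DOT1L, and which was used here is not known, so effects particular to a hairpin cannot be told apart either. All groups are the same cell line, so they describe that line only.

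MMPs are zinc-dependent enzymes that are mostly made as inactive precursors and cut the proteins of the extracellular matrix once a prodomain is removed. Collagenases cut intact fibrillar collagen, gelatinases cut the denatured form, and stromelysins cut a broad range of matrix proteins and can activate other MMP precursors. TIMPs bind the active site and block it, so that the balance of enzyme and inhibitor sets proteolysis around a cell. Several MMPs belong to the senescence-associated secretory phenotype (SASP), the mixture of cytokines, growth factors and proteases that senescent fibroblasts release.

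Levels are given as CPM, a gene's counts per 1000000 counts of its library, with library totals scaled by trimmed mean of M values (TMM) factors. The libraries held 16128055 to 19503457 counts. DOT1L followed the labels, at 11.0 ± 0.64 CPM in RAS/shDOT1L, 84.5 ± 3.4 CPM in RAS, 202 ± 9.2 CPM in DOT1L OE and 31.7 ± 2.3 CPM in control (mean ± SD, n = 3 here and below). HRAS, whose reads include the transgene, stood at 275 ± 13 CPM in RAS/shDOT1L and 503 ± 10 CPM in RAS, against 79.4 ± 5.5 CPM in DOT1L OE and 85.9 ± 2.8 CPM in control. HRAS was thus 1.80-fold lower in RAS/shDOT1L relative to RAS (edgeR quasi-likelihood F test, Benjamini-Hochberg adjusted p = 3.87e-16), and its part in the differences between these groups was not tested. All 12 fibroblast markers checked stood at 1 CPM or more in every group, but their sum was 16351 to 16937 CPM in RAS/shDOT1L, 14791 to 15220 CPM in RAS and 15154 to 15811 CPM in DOT1L OE, against 19568 to 19791 CPM in control. Of these 12, 8 were lower and 3 higher in RAS against control at an adjusted p under 0.05. Over all genes tested, 32% were lower and 31.9% higher. In RAS/shDOT1L against RAS, 5 were lower and 4 higher, beside 26.4% and 26.3%. Between DOT1L OE and control, 9 were lower and 2 higher, beside 29.9% each. Between RAS/shDOT1L and control, 9 were lower and 2 higher, beside 27.6% and 27.9%. Scaled by library size alone, the lower and higher counts were 9 and 1, 3 and 4, 9 and 2, and 10 and 1 in turn. With an offset for GC content they were 8 and 1, 4 and 3, 9 and 2, and 9 and 1. The 8 leukocyte markers checked summed to 1.57 to 5.05 CPM in RAS/shDOT1L, 4.66 to 5.55 CPM in RAS, 1.49 to 1.83 CPM in DOT1L OE and 1.56 to 1.94 CPM in control. Epithelial markers, 8 in number, summed to 50.2 to 63.0 CPM in RAS/shDOT1L, 14.7 to 21.6 CPM in RAS, 41.9 to 45.3 CPM in DOT1L OE and 117 to 122 CPM in control, with 2, 2, 4 and 2 of them at 1 CPM or more. KRT19 was the main one, and the lung epithelial markers NKX2-1 and SFTPC stood at 0 in every library. The 7 endothelial markers in the files summed to 26.2 to 32.0 CPM in RAS/shDOT1L, 64.6 to 67.9 CPM in RAS, 134 to 148 CPM in DOT1L OE and 63.9 to 70.0 CPM in control. The part of these markers in the results was not tested. In RNA from a whole culture, fewer cells of a kind and less RNA per cell cannot be told apart.

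Of the 10 members, 8 passed the filter on low counts in every comparison, and MMP9 and MMP13 passed it in none. In RAS against control, 6 of the 8 were higher and 1 was lower at an adjusted p under 0.05, beside 64% of the 13554 genes tested that were called in either direction (31.9% higher and 32% lower). In the hairpin comparison, RAS/shDOT1L against RAS, 7 were lower and 1 was higher, beside 52.7% of 13398 genes called (26.4% lower and 26.3% higher). Between DOT1L OE and control, 7 were higher and 1 was lower, beside 59.9% of 13660 genes called (29.9% higher and 29.9% lower). Between RAS/shDOT1L and control, 6 were higher and 1 was lower, beside 55.5% of 13519 genes called (27.9% higher and 27.6% lower). The median log2 fold change of the 8 members was 1.91, -1.39, 0.87 and 0.64 in these 4 comparisons in turn, beside -0.04, 0.03, 0.01 and -0.01 over all genes tested. The comparisons share libraries: RAS against control and both other comparisons with control use the same 3 control libraries, and the RAS and RAS/shDOT1L libraries each enter 2 comparisons.

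**Figure D1:**
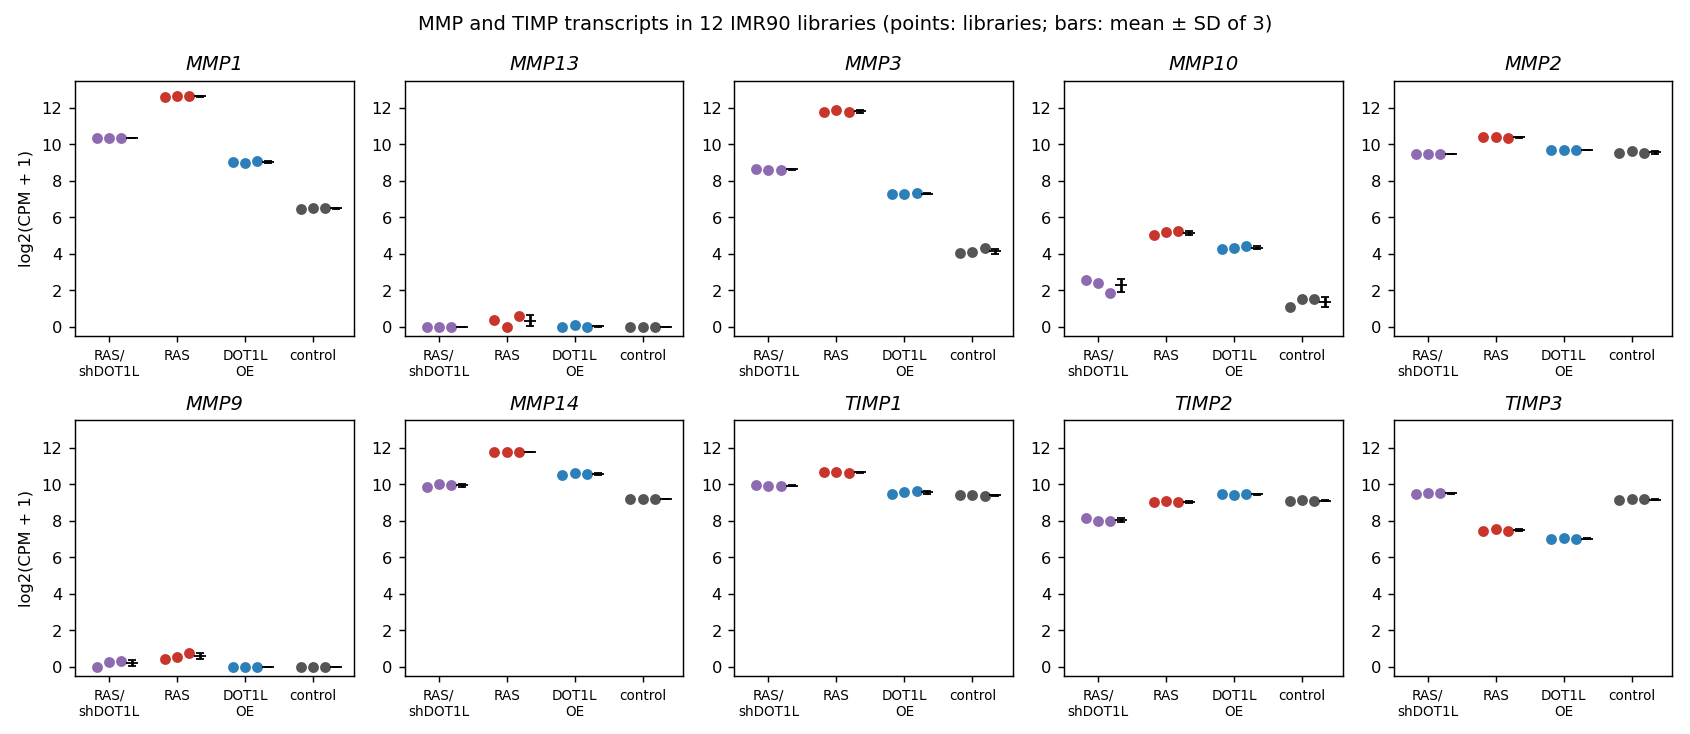
Level of each of the 10 members as log2(CPM + 1) on the vertical axis, by group on the horizontal axis, with a point for each library and a bar for the mean ± SD of 3. RAS libraries stood highest for MMP1, MMP3, MMP10, MMP2, MMP14 and TIMP1, TIMP3 was highest in RAS/shDOT1L, and MMP9 and MMP13 lay near 0 throughout.

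MMP1, the interstitial collagenase, was the most abundant MMP transcript of RAS cells. MMP1 (ENSG00000196611; GRCh38 chromosome 11, 102789401 to 102798160, minus strand) stood at 1319, 1309 and 1283 CPM in RAS/shDOT1L, at 6259, 6481 and 6480 CPM in RAS, at 525, 511 and 536 CPM in DOT1L OE, and at 86.5, 90.3 and 90.7 CPM in control. The 4 groups did not overlap, and RAS/shDOT1L lay above DOT1L OE. MMP1 was 71.8-fold higher in RAS relative to control (log2 fold change 6.17, SE 0.03, adjusted p = 3.99e-46). It was 4.85-fold lower in RAS/shDOT1L relative to RAS (log2 -2.28, SE 0.03, adjusted p = 1.88e-33) but was still 14.7-fold higher relative to control (log2 3.88, SE 0.05, adjusted p = 2.35e-30). In DOT1L OE it was 5.89-fold higher relative to control (log2 2.56, SE 0.05, adjusted p = 1.05e-28). MMP1 alone made up 0.57% to 0.59% of all counts in RAS libraries, against 0.0090% to 0.0094% in control libraries.

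MMP13, the other collagenase, was hardly detected. MMP13 (ENSG00000137745; chromosome 11, 102942995 to 102955732, minus strand) had 5, 0 and 8 counts in the RAS libraries and 0 in each RAS/shDOT1L library, and 1 count in a DOT1L OE library was all that the other 6 libraries held. With a floor of 3 counts put in for a group with 0, it was 5.12-fold higher in RAS relative to control and 4.17-fold lower in RAS/shDOT1L relative to RAS. The floor allows for counting error in the group with 0 counts only. The counts of the RAS group are taken as exact, so these folds are not lower bounds, and RAS replicate 2 had no MMP13 count. With no filter beyond 1 count, MMP13 did not pass the edgeR test in any comparison (adjusted p = 0.0871 in RAS against control).

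The stromelysins MMP3 and MMP10 were higher in RAS and lower with the hairpin, but they differed in their levels with DOT1L alone. MMP3 (ENSG00000149968; chromosome 11, 102835801 to 102843609, minus strand), stromelysin 1, stood at 405, 384 and 392 CPM in RAS/shDOT1L, at 3459, 3753 and 3529 CPM in RAS, at 154, 155 and 160 CPM in DOT1L OE, and at 15.3, 16.0 and 18.8 CPM in control. It had the largest fold of the 8 members in RAS against control, 214-fold higher (log2 7.74, SE 0.05, adjusted p = 2.52e-43). In RAS/shDOT1L, MMP3 was 8.98-fold lower relative to RAS (log2 -3.17, SE 0.04, adjusted p = 1.63e-34) and 23.6-fold higher relative to control (log2 4.56, SE 0.07, adjusted p = 7.34e-28). In DOT1L OE it was 9.36-fold higher relative to control (log2 3.23, SE 0.08, adjusted p = 2.57e-26). As for MMP1, the order was RAS, RAS/shDOT1L, DOT1L OE and control, with no overlap between neighbours.

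MMP10 (ENSG00000166670; chromosome 11, 102770502 to 102780628, minus strand), stromelysin 2, was far less abundant. It stood at 4.83, 4.26 and 2.65 CPM in RAS/shDOT1L, at 31.3, 35.1 and 37.0 CPM in RAS, at 18.1, 19.3 and 20.4 CPM in DOT1L OE, and at 1.08, 1.83 and 1.86 CPM in control. Here DOT1L OE ranked above RAS/shDOT1L, the reverse of MMP1 and MMP3, and again no neighbouring groups overlapped. MMP10 was 21.5-fold higher in RAS relative to control (log2 4.43, SE 0.19, adjusted p = 3.44e-20) and 12.1-fold higher with DOT1L OE relative to control (log2 3.60, SE 0.19, adjusted p = 5.35e-17). It was 8.68-fold lower in RAS/shDOT1L relative to RAS (log2 -3.12, SE 0.18, adjusted p = 4.47e-16), and 2.46-fold higher relative to control (log2 1.30, SE 0.40, adjusted p = 0.00653). That last difference rested on 42 to 74 counts per RAS/shDOT1L library and 21 to 37 per control library. The DOT1L OE mean was 56.0% of the RAS mean for MMP10, 8.18% for MMP1 and 4.36% for MMP3.

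Promoter sequence from the RefSeq table (GRCh38.p14) was at hand for 4 of the 10 members, MMP10, MMP14, TIMP1 and TIMP3. The 150 bases before the start are shown for MMP10 and TIMP3, since these members moved in opposite directions in RAS against control, in RAS/shDOT1L against RAS and in DOT1L OE against control. Capitals mark matches to TGANTCA, the AP-1 motif with any base in the middle, or to TATAAA, a core element found near many starts, each searched on both strands. The MMP10 sequence is chr11:102780629-102780778, minus strand, and the TIMP3 sequence is chr22:32801555-32801704, plus strand.
MMP10: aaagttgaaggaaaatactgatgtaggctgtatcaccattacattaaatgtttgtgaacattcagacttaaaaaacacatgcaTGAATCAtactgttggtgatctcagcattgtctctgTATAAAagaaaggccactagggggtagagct
TIMP3: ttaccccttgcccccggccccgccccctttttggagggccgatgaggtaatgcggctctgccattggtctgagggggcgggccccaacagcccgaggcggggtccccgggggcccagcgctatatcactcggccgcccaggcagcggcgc
In MMP10, the AP-1 match lay 67 to 61 bases and the TATAAA match 31 to 26 bases before the start, and the 2 matches did not overlap. The AP-1 match of MMP10 reads TGAATCA, not TGAGTCA. The windows of MMP14, TIMP1 and TIMP3 held no exact match to TGANTCA or TATAAA. Near matches were not counted: the TIMP1 window holds TGAGTAA, which departs from TGANTCA only in its next-to-last base. The search therefore does not show that TIMP1 lacks an AP-1 site. Over the 250 bases before the start, TGANTCA was found in 6.57%, TGAGTCA in 4.20% and TATAAA in 10.7% of 35116 promoters of the table. That window is longer than the 150 bases given for the members, so these shares are not the rates for a window of 150 bases. G and C made up 36.7% of the 150 bases of MMP10, 54% of MMP14, 63.3% of TIMP1 and 72.7% of TIMP3, beside a median of 60% over the table, and the dinucleotide CG occurred 0, 4, 8 and 13 times in these 4 windows.

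The gelatinase MMP2 was abundant in every group and changed by far less than the collagenase and the stromelysins. MMP2 (ENSG00000087245; chromosome 16, 55389700 to 55506691, plus strand) stood at 703, 718 and 709 CPM in RAS/shDOT1L, at 1329, 1358 and 1309 CPM in RAS, at 836, 834 and 815 CPM in DOT1L OE, and at 727, 787 and 740 CPM in control. RAS stood apart at the top, while the other groups lay close together without overlapping. MMP2 was 1.77-fold higher in RAS relative to control (log2 0.82, SE 0.03, adjusted p = 1.38e-20) and 1.85-fold lower in RAS/shDOT1L relative to RAS (log2 -0.89, SE 0.04, adjusted p = 2.11e-19). Its difference between RAS/shDOT1L and control did not pass the test (log2 -0.08, SE 0.04, adjusted p = 0.117). In DOT1L OE it was 1.10-fold higher relative to control (log2 0.14, SE 0.04, adjusted p = 0.00195), and that call was lost with an offset for GC content (log2 0.08, adjusted p = 0.0639).

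MMP9 (ENSG00000100985; chromosome 20, 46008908 to 46016561, plus strand), the other gelatinase, was close to undetected. It had 0, 3 and 4 counts in RAS/shDOT1L, 6, 7 and 11 counts in RAS, and 0 counts in each DOT1L OE and control library. With the floor of 3 counts put in for the control group, MMP9 was 9.45-fold higher in RAS and 2.86-fold higher in RAS/shDOT1L. These folds take the few RAS and RAS/shDOT1L counts as exact, so they are not lower bounds. With no filter beyond 1 count it passed the edgeR test in RAS against control (adjusted p = 0.0132) but not in RAS/shDOT1L against RAS (adjusted p = 0.449) or RAS/shDOT1L against control (adjusted p = 0.209).

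MMP14, a membrane-anchored MMP that activates the MMP2 precursor at the cell surface, was higher in all 3 groups relative to control. MMP14 (ENSG00000157227; chromosome 14, 22836560 to 22849041, plus strand) stood at 932, 1040 and 984 CPM in RAS/shDOT1L, at 3454, 3491 and 3476 CPM in RAS, at 1479, 1597 and 1541 CPM in DOT1L OE, and at 583, 590.2 and 593 CPM in control. The order was RAS, DOT1L OE, RAS/shDOT1L and control, with no overlap, so DOT1L OE ranked above RAS/shDOT1L as it did for MMP10. MMP14 was 5.90-fold higher in RAS relative to control (log2 2.56, SE 0.03, adjusted p = 6.19e-37) and 2.62-fold higher with DOT1L OE relative to control (log2 1.39, SE 0.04, adjusted p = 1.1e-24). With the hairpin it was 3.48-fold lower relative to RAS (log2 -1.80, SE 0.04, adjusted p = 3.85e-28) and 1.68-fold higher relative to control (log2 0.75, SE 0.04, adjusted p = 6.72e-15).

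The 3 inhibitors did not move together. TIMP1 (ENSG00000102265; chromosome X, 47582408 to 47586789, plus strand), a soluble inhibitor of most secreted MMPs, stood at 981, 955 and 977 CPM in RAS/shDOT1L, at 1603, 1650 and 1601 CPM in RAS, at 701, 777 and 783 CPM in DOT1L OE, and at 687, 678 and 664 CPM in control. TIMP1 was 2.39-fold higher in RAS relative to control (log2 1.26, SE 0.03, adjusted p = 9.38e-27), 1.65-fold lower in RAS/shDOT1L relative to RAS (log2 -0.72, SE 0.04, adjusted p = 1.55e-17) and 1.44-fold higher in RAS/shDOT1L relative to control (log2 0.53, SE 0.04, adjusted p = 1.94e-12). DOT1L OE lay just above control, by 1.12-fold (log2 0.16, SE 0.04, adjusted p = 0.00153), and the lowest DOT1L OE library was nearer to the control libraries than to the other 2 of its group.

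TIMP2, which also takes part in MMP14-dependent activation of the MMP2 precursor, was the member that did not differ between RAS and control by the test. TIMP2 (ENSG00000035862; chromosome 17, 78852977 to 78925387, minus strand) stood at 286, 257 and 250.2 CPM in RAS/shDOT1L, at 514, 541 and 520.3 CPM in RAS, at 701, 684 and 705 CPM in DOT1L OE, and at 535, 558 and 545 CPM in control. RAS and control overlapped (log2 -0.06, SE 0.04, adjusted p = 0.178), RAS/shDOT1L lay below every other group and DOT1L OE above. TIMP2 was 1.96-fold lower in RAS/shDOT1L relative to RAS (log2 -0.97, SE 0.05, adjusted p = 4.00e-17) and 2.06-fold lower relative to control (log2 -1.04, SE 0.05, adjusted p = 1.52e-16). In DOT1L OE it was 1.28-fold higher relative to control (log2 0.36, SE 0.04, adjusted p = 2.46e-09).

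TIMP3, an inhibitor that binds to the matrix and also blocks ADAM and ADAMTS proteases, was lower in RAS and DOT1L OE relative to control and highest in RAS/shDOT1L. TIMP3 (ENSG00000100234; chromosome 22, 32801705 to 32863041, plus strand) stood at 719, 738 and 742 CPM in RAS/shDOT1L, at 173, 185 and 173 CPM in RAS, at 127, 130.4 and 128 CPM in DOT1L OE, and at 561, 574 and 577 CPM in control. No groups overlapped, and RAS/shDOT1L lay above control. TIMP3 was 3.23-fold lower in RAS relative to control (log2 -1.69, SE 0.04, adjusted p = 2.27e-26) and 4.43-fold lower in DOT1L OE relative to control (log2 -2.15, SE 0.05, adjusted p = 1.47e-27). In RAS/shDOT1L it was 4.20-fold higher relative to RAS (log2 2.07, SE 0.05, adjusted p = 8.35e-27) and 1.29-fold higher relative to control (log2 0.37, SE 0.04, adjusted p = 8.22e-09). It was the 1 member called lower in RAS against control, the 1 called lower in DOT1L OE against control, and the 1 called higher in RAS/shDOT1L against RAS.

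**Figure D2:**
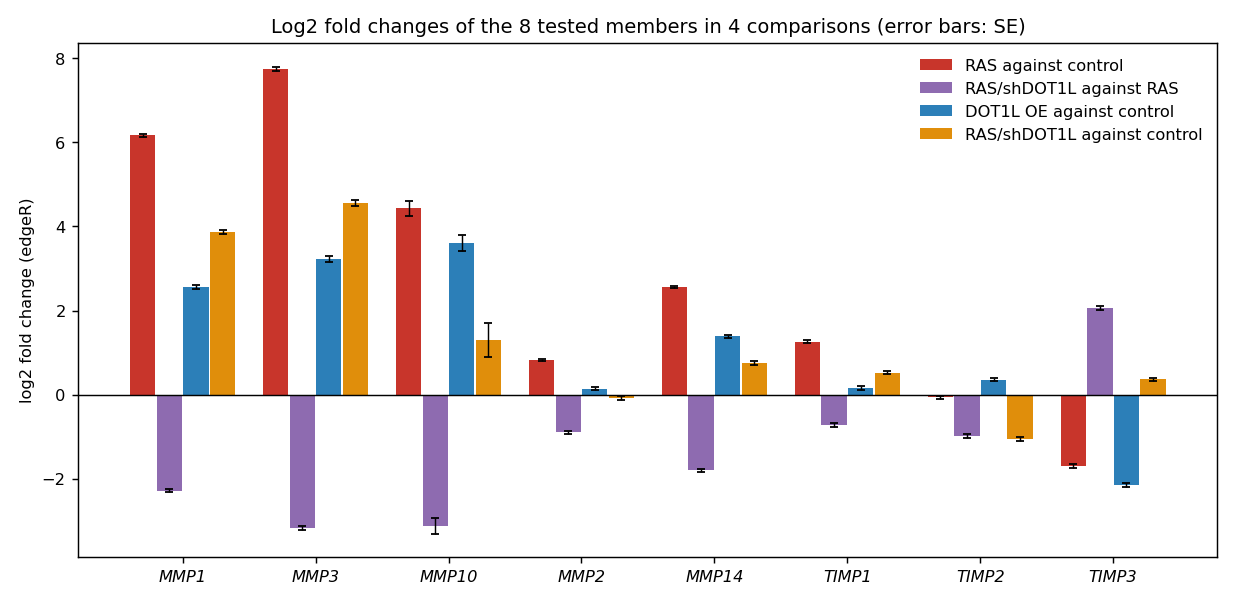
Log2 fold change from edgeR on the vertical axis for the 8 tested members on the horizontal axis, with a bar for each of 4 comparisons and error bars of 1 SE. MMP1, MMP3, MMP10 and MMP14 were positive against control in all 3 comparisons with it and negative in RAS/shDOT1L against RAS, and TIMP3 had the opposite sign in 3 of the 4 comparisons (log2 -1.69, 2.07, -2.15 and 0.37 in legend order).

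Levels of different genes were compared per kilobase (kb) of the Ensembl canonical transcript. On that scale, the 7 MMPs summed to 1348 ± 14 CPM per kb in RAS/shDOT1L, 6553 ± 147 in RAS, 1014 ± 14 in DOT1L OE and 428 ± 11 in control. The 3 TIMPs summed to 1494 ± 20 CPM per kb in RAS/shDOT1L, 2287 ± 41 in RAS, 1198 ± 59 in DOT1L OE and 1153 ± 13 in control. The ratio of MMP to TIMP transcripts was 0.902 ± 0.020 in RAS/shDOT1L, 2.87 ± 0.03 in RAS, 0.847 ± 0.032 in DOT1L OE and 0.371 ± 0.011 in control. RAS was the only group with more MMP than TIMP transcript by this measure, although the place of 1 on this ratio depends on the length used: with the union of all exons as length, RAS/shDOT1L and DOT1L OE stood at 1.21 ± 0.02 and 1.20 ± 0.04. RAS stood highest and control lowest with both lengths and without division by length. The ratio describes RNA only, and protein and enzyme activity were not measured here.

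**Figure D3:**
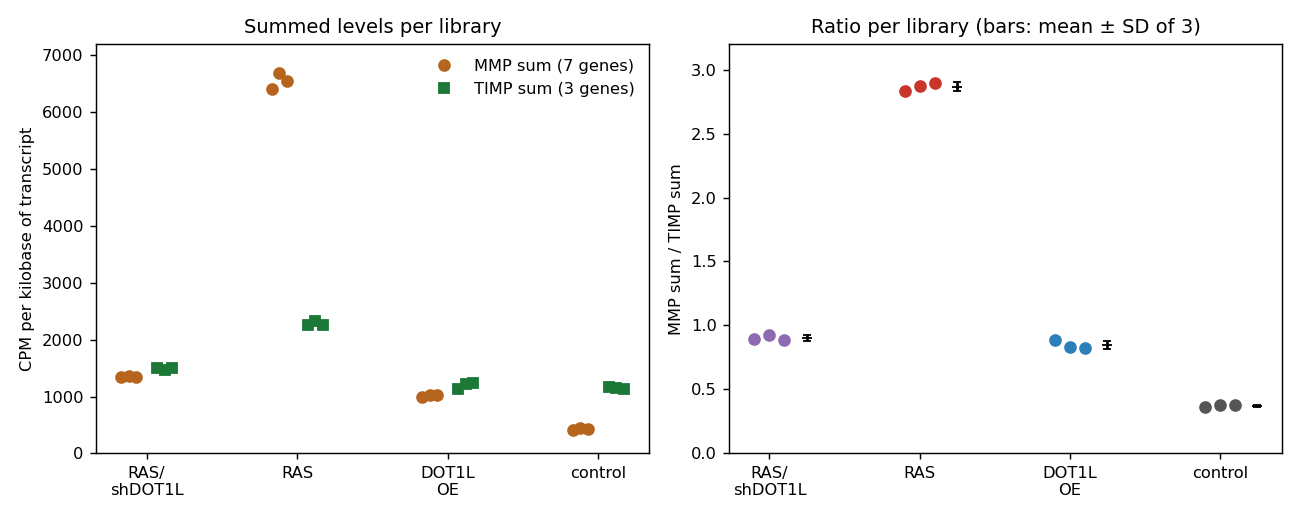
Left, summed CPM per kb of the 7 MMPs and the 3 TIMPs on the vertical axis, by group on the horizontal axis, with a point for each library. Right, their ratio in each library with the mean ± SD of 3, which was 0.902 in RAS/shDOT1L, 2.87 in RAS, 0.847 in DOT1L OE and 0.371 in control.

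The make-up of the MMP sum also differed between groups. MMP1 accounted for 49.1% ± 0.6 of it in RAS/shDOT1L, 49.6% ± 0.5 in RAS, 26.2% ± 0.8 in DOT1L OE and 10.6% ± 0.2 in control. MMP2 made up 15.0% ± 0.1 in RAS/shDOT1L, 5.78% ± 0.11 in RAS, 23.3% ± 0.6 in DOT1L OE and 49.9% ± 1.0 in control. MMP14 was the largest part in DOT1L OE, at 41.0% ± 1.1. TIMP1 was the main inhibitor transcript everywhere, with 84.5% ± 0.2 of the TIMP sum in RAS/shDOT1L, 92.0% ± 0.1 in RAS, 81.7% ± 1.0 in DOT1L OE and 76.3% ± 0.5 in control. TIMP3 held 10.7% ± 0.3 of that sum in RAS/shDOT1L and 1.68% ± 0.04 in RAS, against 2.34% ± 0.10 in DOT1L OE and 10.8% ± 0.3 in control. These shares add to a fixed whole, so a high share of one gene lowers the others.

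MMP1, MMP3, MMP10 and MMP13 lie in a cluster of MMP genes on chromosome 11. In map order, the genes with an ID in the files are MMP7, MMP20, MMP27, MMP8, MMP10, MMP1, MMP3 and MMP13, all on the minus strand. MMP20, which is known for its work in tooth enamel, and MMP27 had 0 counts in every library. MMP8, the collagenase of neutrophils, had 6 counts in a RAS/shDOT1L library and 1 count in a control library. MMP7, or matrilysin, had 8, 1 and 11 counts in RAS/shDOT1L, 7, 21 and 12 counts in RAS, 2, 0 and 7 counts in DOT1L OE, and 0, 0 and 2 counts in control. MMP12, which lies between MMP3 and MMP13, had no ID in these data, so its level is not known. Among the genes with an ID, abundant transcripts were thus limited to MMP1 and MMP3, which are neighbours. MMP10, next to MMP1, stood at a much lower level.

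A transcribed pseudogene, WTAPP1, runs on the plus strand across this stretch and shares 223 exon bases with MMP1 and 32 with MMP3. WTAPP1 had 5, 0 and 3 counts in RAS/shDOT1L, 36, 31 and 26 counts in RAS, 0, 1 and 0 counts in DOT1L OE, and none in control. With the floor of 3 counts put in for the control group, it was 36.6-fold higher in RAS relative to control, with the RAS counts taken as exact. WTAPP1 was 10.6-fold lower in RAS/shDOT1L relative to RAS (log2 -3.40, SE 0.81, adjusted p = 0.000611). The strand setting of the counting is not given in the sources used here, so reads of WTAPP1 and of the MMP exons it covers cannot be told apart. The whole of WTAPP1 came to 93 counts in RAS, beside 313544 for MMP1. SYN1, a synapsin gene that spans TIMP1 on the opposite strand, shares no exon base with it and had 34 to 151 counts per library. SYN3, which spans TIMP3 in the same way, had 7 counts in all. CEP295NL, on the same strand as TIMP2, shares 224 exon bases with it and had 76 counts in all, and SLC12A5-AS1, antisense to MMP9 over 430 exon bases, had none.

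**Figure D4:**
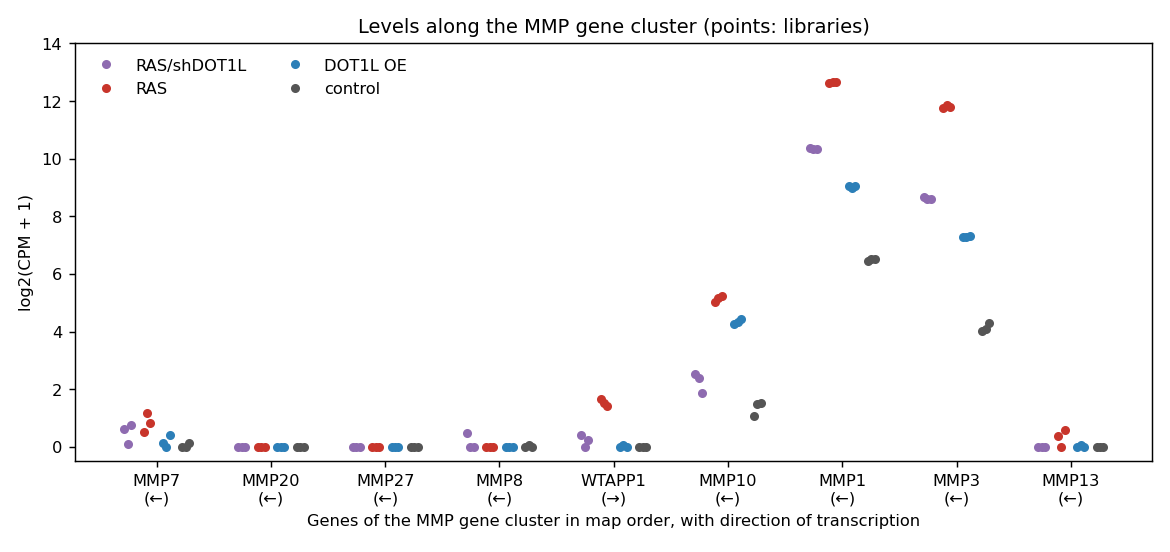
Levels as log2(CPM + 1) on the vertical axis for the chromosome 11 MMP cluster and the pseudogene WTAPP1, with a point for each library. Genes with an ID in these data are in map order on the horizontal axis with their direction of transcription, and MMP12 had no ID. MMP10, MMP1 and MMP3 stand above the rest, with RAS highest, and MMP20 and MMP27 lie at 0.

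Libraries differed in how expression leaned on the GC content of transcripts. The 10% of genes highest in GC content minus the 10% lowest gave a log2 difference of -0.10 ± 0.04 in RAS/shDOT1L, 0.73 ± 0.01 in RAS, -0.15 ± 0.09 in DOT1L OE and -0.51 ± 0.03 in control. The members span this range, from 43.3% GC for MMP1 to 58.9% for MMP14 among the 8 tested. Genes within 2 percentage points of MMP1 had a median log2 fold change of -0.33 in RAS against control, and those within 2 points of MMP14 had 0.45, beside 6.17 and 2.56 for the members themselves. With an offset for GC content, the log2 fold changes in RAS against control were 6.51 for MMP1, 7.97 for MMP3, 4.76 for MMP10, 2.11 for MMP14 and -1.66 for TIMP3. The smaller ones moved more in proportion: MMP2 stood at 0.48 with the offset and TIMP1 at 0.83. TIMP2 passed the test as lower in RAS with the offset (log2 -0.29, adjusted p = 5.62e-08) and when scaled by library size alone (log2 -0.26, adjusted p = 3.06e-07). MMP2 passed it as lower in RAS/shDOT1L relative to control in the same settings (log2 -0.19, adjusted p = 0.000206, and log2 -0.19, adjusted p = 0.00014).

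**Figure D5:**
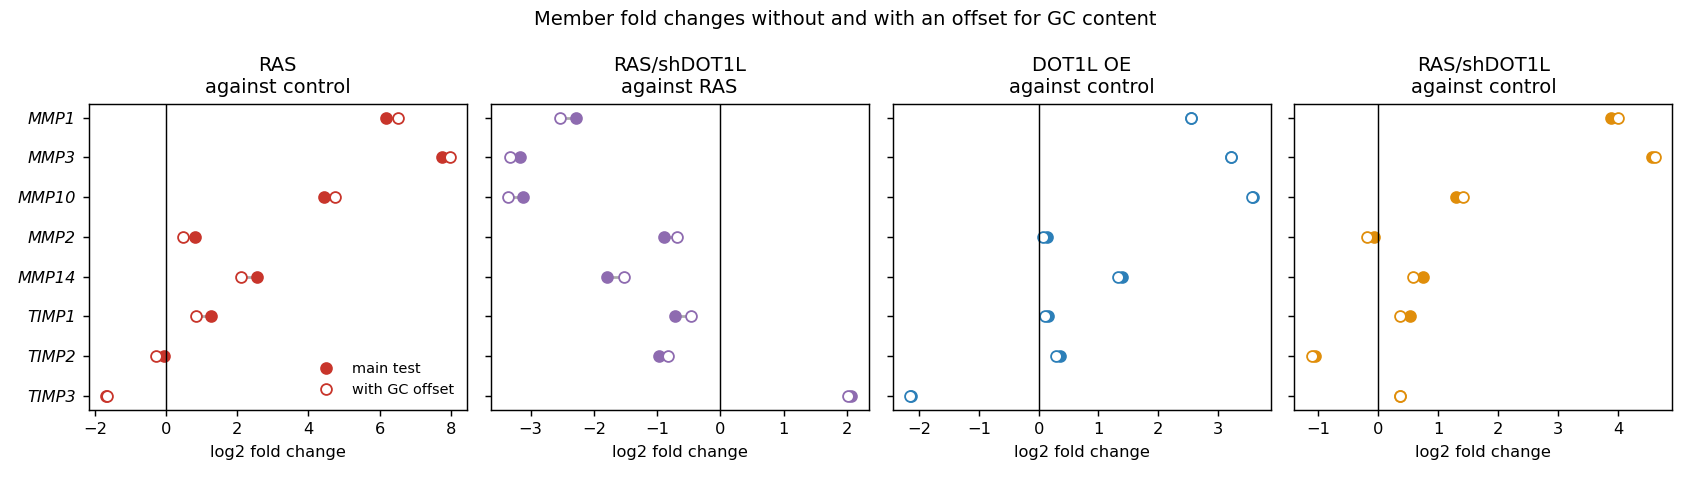
Log2 fold change on the horizontal axis for the 8 tested members, listed on the vertical axis, in 4 comparisons, from the main test (filled) and with an offset for GC content (open). No member changed sign, and in RAS against control TIMP1 stood at 1.26 without and 0.83 with the offset.

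The rest of the family was sparse: of 17 other MMP and TIMP genes, 15 had an ID in the files and 7 to 9 passed the filter in each comparison. In RAS against control, 3 of 7 were higher and 1 was lower, beside 31.9% higher and 32% lower over all genes tested. That balance turned with the scaling, to 2 higher and 3 lower with the GC offset and to 1 higher and 2 lower by library size alone. MMP15, a membrane-type enzyme, was 2.88-fold higher (log2 1.52, SE 0.16, adjusted p = 7.8e-10), or log2 0.90 with the GC offset (adjusted p = 2.21e-05). In the main test, MMP17, another membrane-type enzyme, was 1.50-fold higher (adjusted p = 0.00487) and MMP19 1.29-fold higher (adjusted p = 0.0138). The calls of MMP17 and MMP19 were lost with the GC offset (adjusted p = 0.849 and 0.325) and when scaled by library size alone (adjusted p = 0.0574 and 0.26). With the GC offset, MMP24 and MMP11 passed as lower (log2 -1.12 and -0.69, adjusted p = 0.015 and 0.0448). MMP16, with log2 -0.19 in the main test, passed as higher with the GC offset (log2 0.44, adjusted p = 0.0162) and as lower by library size alone (log2 -0.39, adjusted p = 0.0273). The MMP19 call was also lost without control replicate 1 (adjusted p = 0.0854), control replicate 3 (0.0826) or RAS replicate 3 (0.113). TIMP4, a close relative of TIMP2 and TIMP3, had 36, 38 and 37 counts in RAS/shDOT1L, 3, 9 and 11 counts in RAS, 32, 40 and 32 counts in DOT1L OE, and 31, 48 and 27 counts in control. It was 3.87-fold lower in RAS relative to control (log2 -1.95, SE 0.63, adjusted p = 0.00746), a call lost without control replicate 2 (log2 -1.63, adjusted p = 0.072), and 4.98-fold higher in RAS/shDOT1L relative to RAS (log2 2.32, SE 0.64, adjusted p = 0.00251).

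For RAS/shDOT1L against RAS, 3 of 9 other family members were lower (26.4% of all genes tested), MMP15 by 2.95-fold (adjusted p = 2.84e-09), MMP19 by 2.24-fold (adjusted p = 4.25e-08) and the membrane-type MMP16 by 2.92-fold (adjusted p = 2.51e-07), and TIMP4 was the 1 higher. MMP16 stood at 4.36 ± 0.41 CPM in RAS/shDOT1L, 12.9 ± 1.3 CPM in RAS, 15.2 ± 1.0 CPM in DOT1L OE and 14.7 ± 1.1 CPM in control. On this TMM scale only the group with the hairpin stood apart, while RAS and control differed in the other scalings given above. MMP16 was 3.37-fold lower in RAS/shDOT1L relative to control (adjusted p = 9.93e-09), where MMP19 was the other of 2 called, also lower. In DOT1L OE against control, MMP23B was higher by 6.59-fold (adjusted p = 0.000153) on 39, 44 and 23 counts in DOT1L OE and 6, 2 and 7 counts in control. MMP24 and MMP19 were lower by 2.19-fold (adjusted p = 0.00571) and 1.27-fold (adjusted p = 0.0122), and both calls were lost without control replicate 2 (adjusted p = 0.0521 and 0.105). The MMP19 call was also lost without DOT1L OE replicate 3 (adjusted p = 0.0513) and when scaled by library size alone (adjusted p = 0.0517), where 2 of the 8 tested were higher and 1 was lower.

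As the background for the related gene lists, the calls over all genes tested came to 31.9% higher and 32% lower for RAS against control, 26.3% and 26.4% in RAS/shDOT1L against RAS, 29.9% and 29.9% in DOT1L OE against control, and 27.9% and 27.6% in RAS/shDOT1L against control.

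Genes that activate MMP precursors, among them the plasminogen activators and their inhibitors, formed a list of 12, of which 9 were tested. In RAS against control, 6 were higher and 3 lower, led by the urokinase gene PLAU at 10.1-fold (log2 3.33, SE 0.03), the plasminogen activator inhibitor SERPINB2 at 12.7-fold (log2 3.67, SE 0.05) and the urokinase receptor PLAUR at 3.47-fold (log2 1.80, SE 0.05). The same 3 led in RAS/shDOT1L against RAS, where 6 were lower and 2 higher: SERPINB2 was lower by 6.20-fold, PLAU by 1.95-fold and PLAUR by 2.13-fold. For DOT1L OE against control, 5 were higher and 4 lower, with PLAU higher by 3.44-fold and the tissue plasminogen activator PLAT higher by 2.95-fold. For RAS/shDOT1L against control, 6 were higher and 3 lower, with PLAU 5.13-fold, PLAT 1.66-fold and SERPINE2 1.54-fold higher. The median log2 fold change of the 9 was 1.06 in RAS against control, -0.62 in RAS/shDOT1L against RAS, 0.37 in DOT1L OE against control and 0.63 in RAS/shDOT1L against control, beside the medians of all genes given above. PLAU, PLAUR, PLAT and SERPINE2, among others of the list, were called in the direction of MMP1, MMP3, MMP10 and MMP14 in all 4 comparisons. The SERPINE2 call in RAS/shDOT1L against RAS was lost when scaled by library size alone and without RAS/shDOT1L replicate 2.

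Other inhibitors, docking partners and clearance receptors of MMPs were tested for 11 of 12 genes. TFPI2, a secreted protease inhibitor, was 5.78-fold higher in RAS relative to control (log2 2.53, or 3.13 with the GC offset), 3.42-fold lower in RAS/shDOT1L relative to RAS, 2.60-fold higher with DOT1L OE relative to control and 1.67-fold higher in RAS/shDOT1L relative to control. In RAS against control, 6 were higher, including BSG, which is known to raise MMP production by fibroblasts, at 1.81-fold and the integrin subunit gene ITGB3 at 2.77-fold, and 5 were lower, while with the GC offset 5 were higher and 6 lower. Between RAS/shDOT1L and RAS, 8 were lower, including ITGB3 at 3.65-fold and the hyaluronan receptor CD44 at 1.45-fold, and 3 were higher. With the GC offset these counts were 5 lower and 2 higher. Between DOT1L OE and control, 5 were higher and 5 lower, with the integrin subunit gene ITGAV lower by 1.83-fold and the broad protease inhibitor A2M by 2.10-fold. A2M was also lower in RAS/shDOT1L relative to control, by 4.95-fold, where 7 were lower and 3 higher. The medians over the list were 0.12 in RAS against control, -0.45 in RAS/shDOT1L against RAS, -0.12 in DOT1L OE against control and -0.15 in RAS/shDOT1L against control.

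ADAM and ADAMTS proteases, several of which TIMP3 inhibits, held calls in both directions in each comparison. Of 9 tested in RAS against control, 2 were higher and 5 lower, with ADAM19 at 2.06-fold higher, the proteoglycan-cutting ADAMTS1 at 2.41-fold lower and the sheddase ADAM10 at 2.38-fold lower. In the hairpin comparison, RAS/shDOT1L against RAS, 2 of 9 were higher and 2 lower, but 5 were higher and 2 lower when scaled by library size alone, and 3 and 3 with the GC offset. ADAMTS5, an aggrecan-cutting enzyme, was 9.76-fold lower there and 21.4-fold lower in RAS/shDOT1L relative to control. ADAMTS12 was 1.77-fold higher in RAS/shDOT1L relative to RAS and 4.19-fold lower in DOT1L OE relative to control, where 3 of 10 were higher and 5 lower. Where RAS/shDOT1L was set against control, 3 of 9 were higher and 4 lower. The list's median log2 fold change was -0.42 in RAS against control, 0.12 in RAS/shDOT1L against RAS, -0.17 in DOT1L OE against control and -0.22 in RAS/shDOT1L against control.

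Of 15 genes for matrix proteins that MMPs cut, all were tested. In RAS against control, 9 were lower and 5 higher, beside 32% lower and 31.9% higher over all genes, and with the GC offset 10 were lower and 2 higher. The leading genes were SPARC, a matricellular protein, at 1.93-fold lower, the proteoglycan decorin (DCN) at 2.36-fold lower, and tenascin C (TNC) at 2.66-fold higher. For RAS/shDOT1L against RAS, 9 were lower and 4 higher, beside 26.4% and 26.3% over all genes, with SPARC 1.86-fold higher, fibronectin (FN1) 1.59-fold lower and the collagen gene COL4A2 1.68-fold lower. In DOT1L OE against control, 8 were lower and 5 higher, with SPARC 2.81-fold and FN1 2.35-fold lower and versican (VCAN) 3.19-fold higher. Between RAS/shDOT1L and control, 8 were lower and 5 higher, or 10 lower and 3 higher with the GC offset, led by FN1, DCN and COL3A1 at 2.32-fold, 2.62-fold and 2.03-fold lower. Medians over the 15 were -0.28 in RAS against control, -0.14 in RAS/shDOT1L against RAS, -0.15 in DOT1L OE against control and -0.11 in RAS/shDOT1L against control.

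Transcription factors known at MMP promoters, of the AP-1, ETS and related families, were all tested. Of 16, 11 were higher and 3 lower in RAS against control, with CEBPB at 4.78-fold, the AP-1 subunit gene JUNB at 5.38-fold and ETS2 at 2.39-fold higher, beside 31.9% of all genes tested higher and 32% lower. With the GC offset, 9 were higher and 4 lower, and CEBPB stood at log2 1.62 in place of 2.26 and JUNB at 1.81 in place of 2.43. Between RAS/shDOT1L and RAS, 9 were lower and 2 higher, with the AP-1 subunit gene JUND at 4.59-fold, CEBPB at 2.61-fold and ETS2 at 2.20-fold lower, and with the GC offset 6 were lower and 4 higher. For DOT1L OE against control, 9 were higher and 4 lower, with ETS2 at 2.89-fold, CEBPB at 3.51-fold and JUNB at 2.19-fold higher. For RAS/shDOT1L against control, 7 were higher and 4 lower, with JUNB 4.47-fold and CEBPB 1.81-fold higher and JUND 2.44-fold lower. When scaled by library size alone, these last counts were 4 higher and 6 lower, and with the GC offset 5 and 5. The 16 factors had a median log2 fold change of 0.64 in RAS against control, -0.31 in RAS/shDOT1L against RAS, 0.32 in DOT1L OE against control and 0.13 in RAS/shDOT1L against control.

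Genes whose pattern was most like that of a member were sought among 13695 genes by the root mean square difference of centred log2 CPM over the 12 libraries. The search used TMM-scaled levels without the GC offset. MMP14 and TFPI2 lay closest, at 0.05, and TFPI2 stood at 291 CPM in RAS/shDOT1L, 1009 in RAS, 452 in DOT1L OE and 174 in control. With the GC offset this pair drew apart. In RAS against control, the log2 fold change was then 2.11 for MMP14 and 3.13 for TFPI2. In RAS/shDOT1L against RAS, it was -1.52 for MMP14 and -2.16 for TFPI2. MMP1 was nearest to PREX1 (0.30), a guanine nucleotide exchange factor, and MMP3 to the chemokine gene CXCL8 (0.52), which stood at 325 CPM in RAS/shDOT1L, 2708 in RAS, 70.0 in DOT1L OE and 5.86 in control. MMP10 was nearest to the nuclear receptor gene NR4A3 (0.43), with the growth factor gene AREG among its 3 nearest (0.57). MMP2 was nearest to STEAP3 (0.06), TIMP1 to ULK3 (0.08), TIMP2 to the chaperonin gene HSPD1 (0.06) and TIMP3 to NNMT (0.16), a methyltransferase that acts on nicotinamide. Among the members themselves, the difference was smallest for MMP2 and TIMP1 (0.27), followed by MMP2 with TIMP2 (0.52) and MMP1 with MMP3 (0.56), and largest for MMP3 and TIMP3 (3.36). This measure is not scaled for the size of a gene's changes, so genes that change little score as close whatever their order of groups. MMP2 was highest in RAS and TIMP2 in DOT1L OE, while MMP1 and MMP3 had the same order of groups. These are descriptions over 12 libraries that fall into 4 groups, so that genes with like group means come out as alike.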

How the data were processed

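Libraries were made from poly(A) RNA with random hexamers and sequenced paired-end, as the study's methods describe. The files deposited by the authors hold raw counts per Ensembl gene, 1 file per library, made by STAR on GRCh38, and the submitters' processing notes list STAR 2.6.1 along with DESeq2. The methods and figure legends differ on whether libraries are biological or technical replicates, so the spread that p-values rest on here may be technical. No pair of libraries of a group agreed within sampling noise (chi-square divided by degrees of freedom, 4.33 to 7.87).

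The main test was that of edgeR 4.0.16 under R 4.3.3 (filterByExpr, TMM, quasi-likelihood F test, two-sided) on the 6 libraries of each comparison, and a gene was called at a Benjamini-Hochberg adjusted p under 0.05 over all genes tested. The script was tested on simulated data first. CPM used TMM-scaled library sizes. Coordinates, transcript lengths and GC content came from GENCODE 44 on GRCh38, and promoters from RefSeq. The 10 members and the gene lists were chosen with earlier results of these data known. All members are named, with, for each list and comparison, up to 3 called genes of smallest p, the family genes with counts, and the nearest patterns. The value of 1 list gene is not reported here. Alternatives were DESeq2 size factors, library size only, other filters (no filter beyond 1 count, CPM of at least 1 in 3 libraries), DESeq2 1.42.0 (Wald test), limma-voom (limma 3.58.1), 1 fit over all 4 groups, a replicate block, a GC offset (20 bins of GC content) and each library left out in turn. Other gene lengths for the MMP to TIMP ratio were added after seeing the data.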

Additional observations from a re-analysis of the deposited data

How the results depend on the processing

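In the 4 comparisons, the counts of members called higher and lower did not change with DESeq2 size factors, the stricter CPM filter, the DESeq2 Wald test, limma-voom, 1 fit over all 4 groups, or any single library left out (6 and 1 in RAS against control, 1 and 7 in RAS/shDOT1L against RAS, 7 and 1 in DOT1L OE against control, 6 and 1 in RAS/shDOT1L against control). Members called lower came to 2 when scaled by library size alone and 2 with the GC offset, both in RAS against control (TIMP2 added) and in RAS/shDOT1L against control (MMP2 added). None of the 8 tested members changed sign under these alternatives. Library size only moved the median of all genes by -0.198 (log2) in RAS against control and by -0.116 in RAS/shDOT1L against control, and gave 3256 higher and 5573 lower calls in RAS against control, beside 4327 and 4343 with TMM. In RAS/shDOT1L against control it gave 3037 higher and 4561 lower, beside 3775 and 3726. Without any filter beyond 1 count, MMP9 joined the members higher in RAS against control, which made 7. The least firm member calls with a library left out were MMP10 in RAS/shDOT1L against control (largest adjusted p = 0.0399) and MMP2 in DOT1L OE against control (largest adjusted p = 0.0343), both by edgeR. Same-numbered libraries did not deviate together (correlations -0.019 to 0.0273), so the numbers do not pair them. With the replicate block, the member counts were the same, and 8435, 6871, 8030 and 7303 genes were called in the 4 comparisons in turn, beside 8670, 7058, 8180 and 7501 without it. The MMP to TIMP ratio without division by length was 1.73 in RAS/shDOT1L, 6.39 in RAS, 1.94 in DOT1L OE and 0.807 in control, and with exon unions 4.29 in RAS and 0.485 in control. Depth limits MMP9 and MMP13, which had at most 11 counts in a library.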
